A study of Bos taurus with 3 samples.

Results

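The circadian clock genes described here are 10 genes, CLOCK, ARNTL, PER1, PER2, PER3, CRY1, CRY2, NR1D1, NR1D2 and DBP, taken by symbol from a table of 31903 genes. All 10 had a row and at least 1 read in every library. The cells were BFF116, cultured fibroblasts from a bovine fetus that served as donors of nuclei for cloning. The only group was 3 replicates, each of 70000 cells collected after 48 h of serum starvation. No genotype change, drug or untreated culture is part of the series, and whether the replicates came from different dishes or fetuses is not stated in the labels, so that their spread, and any p-value that rests on it, may be technical.

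The clock is a transcription loop that runs inside single cells over about a day. The proteins CLOCK and ARNTL (also called BMAL1) pair on DNA elements named E-boxes and switch on the PER and CRY genes, whose proteins return to the nucleus and block that pair. The same pair drives NR1D1 and NR1D2, nuclear receptors that repress ARNTL, and DBP, an activator that binds elements named D-boxes. In fibroblasts the loop runs in each cell, cells of a dish drift apart in phase, and serum, glucocorticoid or forskolin can bring them back into step. The loop is read best from a time series, and these 3 libraries share a single nominal collection time, with no hour of day given in the sources used here.

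Reads assigned to genes numbered 4842331 to 8608350 per library, lowest in replicate 2, and 58.9 to 62.0% of all reads fell in no annotated gene. Levels are gene reads scaled to a common library size (CPM), with the mean ± SD of 3 replicates, and 1 read was worth 0.119, 0.202 and 0.141 CPM in replicates 1 to 3. All 8 of 8 fibroblast markers listed stood at 1 CPM or more in every library, with a summed level of 74348 to 83622 CPM. All 5 epithelial, 3 erythroid and 3 skeletal muscle markers in the table were below that level in some library, and 2 of the 4 endothelial (PECAM1 and TEK), 1 of the 4 leukocyte (CD68) and 2 of the 4 neural markers measured here (TUBB3 and MAP2) reached it, with a summed level of at most 12.2 CPM for any of these lists in any library. The leukocyte gene PTPRC, the endothelial gene KDR and the epithelial gene EPCAM were at 0 reads in every library.

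Of the 10 clock genes, 7 reached 1 CPM in every library, against 34.6% of all genes in the table and 61.2% of the genes with a read, so the count lies near the latter background. They were CLOCK, ARNTL, PER2, PER3, CRY1, NR1D1 and NR1D2. PER1, CRY2 and DBP did not, and DBP missed only in replicate 1, so that without replicate 1 the count was 8. With a minimum of 10 reads in every library the count was 6, since PER2 had 7 reads in replicate 2. In RNA from whole cultures, fewer cells with a transcript and less of it in each cell cannot be told apart.

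**Figure D1:**
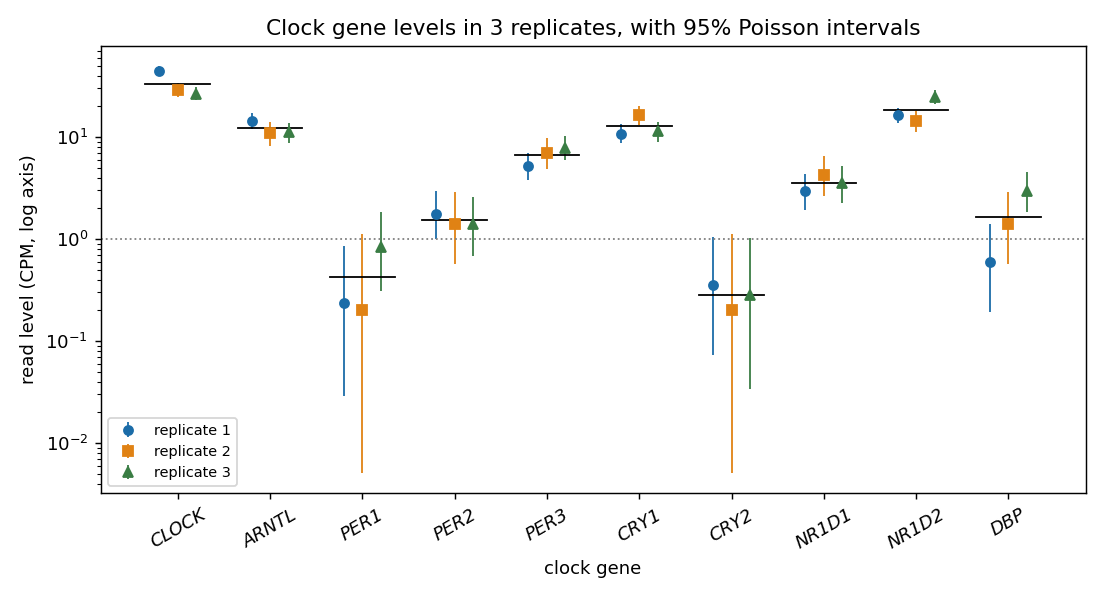
Read level of each clock gene in each replicate, in CPM on a log axis, with 95% exact Poisson intervals of counting error as vertical bars, the mean of 3 replicates as a black line and 1 CPM as a dotted line. CLOCK lies between 26.7 and 44.8 CPM, while all 3 replicates of PER1 and of CRY2 lie under 1 CPM.

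Of the activators, CLOCK, the partner of ARNTL, had 377, 144 and 190 reads in replicates 1 to 3, which are 44.8, 29.0 and 26.7 CPM, with a mean of 33.5 ± 9.83 CPM (SD, n = 3). Replicate 1 stood above the other two, and its 95% Poisson interval, which covers counting error only, (40.4 to 49.5 CPM) lay apart from theirs (24.5 to 34.2 and 23.1 to 30.8 CPM). ARNTL had 122, 54 and 79 reads, or 14.5, 10.9 and 11.1 CPM, with a mean of 12.2 ± 2.02 CPM. It too was highest in replicate 1, although its 3 counting intervals overlapped. NPAS2, which can take the place of CLOCK, stood at 4.99, 5.64 and 5.21 CPM, the narrowest spread of the 4 activator genes. ARNTL2, the paralog of ARNTL, had 13, 3 and 3 reads, and so was under 1 CPM in replicates 2 and 3.

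The PER genes encode the rate-limiting part of the repressor complex. PER3 had 44, 35 and 56 reads, or 5.23, 7.05 and 7.88 CPM (mean 6.72 ± 1.36 CPM), with overlapping counting intervals. PER2 had 15, 7 and 10 reads, or 1.78, 1.41 and 1.41 CPM (mean 1.53 ± 0.215 CPM). PER1, which in many cells is induced within an hour by serum, cAMP or glucocorticoid, had 2, 1 and 6 reads. The upper ends of its counting intervals were 0.858, 1.12 and 1.84 CPM, and all 3 overlapped. Its mean of 0.428 CPM was 0.220 CPM without replicate 3, which held 6 of its 9 reads.

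CRY1 and CRY2 encode the partners of PER that contact CLOCK and ARNTL directly. CRY1 had 91, 81 and 81 reads, or 10.8, 16.3 and 11.4 CPM, with a mean of 12.8 ± 3.03 CPM. It was highest in replicate 2, with an interval (13.0 to 20.3 CPM) that overlapped those of replicates 1 and 3 (8.70 to 13.3 and 9.05 to 14.2 CPM). CRY2 had 3, 1 and 2 reads in all, with upper interval ends of 1.04, 1.12 and 1.02 CPM. These bounds hold only if reads could be assigned to the gene, and the annotation behind the table is not given in the sources used here. In the RefSeq order of ARS-UCD2.0 the genes on either side of CRY2 are SLC35C1, with 17, 16 and 23 reads, and MAPK8IP1, with 1, 1 and 7.

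Further repressors of the loop spanned a wide range of reads. BHLHE40, which competes with CLOCK and ARNTL for E-boxes and is also induced by serum and low oxygen, stood at 106, 103 and 114 CPM (mean 108 ± 5.55 CPM). Its paralog BHLHE41 had 3, 2 and 2 reads. TIMELESS, better known in mammals for its part at replication forks, stood at 10.4 ± 1.82 CPM. CIART, a repressor whose transcript follows the E-box genes, had 5, 5 and 0 reads, and the one-sided limit of 3 counts for 0 reads is 0.422 CPM in replicate 3. In all, 5 of 9 genes of the repressor list (55.6%) reached 1 CPM in every library, beside 61.2% of all genes with a read.

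NR1D1 and NR1D2 encode REV-ERB alpha and beta, haem-binding receptors that repress ARNTL through RORE elements. NR1D2 had 139, 71 and 176 reads, or 16.5, 14.3 and 24.8 CPM, with a mean of 18.5 ± 5.51 CPM. Replicate 3 was the highest, and its counting interval (21.2 to 28.7 CPM) lay above those of replicates 1 and 2 (13.9 to 19.5 and 11.2 to 18.0 CPM). NR1D1 had 25, 21 and 25 reads, or 2.97, 4.23 and 3.52 CPM (mean 3.57 ± 0.633 CPM), and its intervals overlapped. The span of NR1D1 in RefSeq overlaps that of THRA, a thyroid hormone receptor gene read at 14.6 CPM, so reads in the shared stretch cannot be assigned with certainty without a known strand setting. The span of NR1D2 overlaps no other gene there, while that of PER2 overlaps LOC132344956 and that of CRY1 overlaps LOC107132502.

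The ROR genes encode activators at the same RORE elements. RORA had 12, 14 and 4 reads, or 1.43, 2.82 and 0.563 CPM, and was lowest in replicate 3, where NR1D2 was highest. The intervals of replicates 2 and 3 for RORA (1.54 to 4.73 and 0.153 to 1.44 CPM) did not overlap. Its mean of 1.60 CPM was 0.982 CPM without replicate 2. RORB had 0, 0 and 1 reads, and the one-sided limit of 3 counts for 0 reads is 0.356 and 0.605 CPM in replicates 1 and 2.

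DBP, the clock's D-box activator, had 5, 7 and 21 reads, or 0.594, 1.41 and 2.95 CPM. Replicate 3 was 4.98 times replicate 1, and their counting intervals (1.83 to 4.52 and 0.193 to 1.39 CPM) did not overlap. The mean of 1.65 CPM was 1.00 CPM without replicate 3. TEF, a relative of DBP that binds the same element, had 37, 20 and 78 reads, or 4.39, 4.03 and 11.0 CPM. Its interval in replicate 3 (8.68 to 13.7 CPM) also lay above the other two (3.09 to 6.06 and 2.46 to 6.22 CPM), and its mean of 6.47 CPM was 4.22 CPM without that library. HLF, the third activator of this family, had 2, 0 and 7 reads. NFIL3, the repressor at D-boxes, stood at 61.6, 50.8 and 42.6 CPM (mean 51.7 ± 9.54 CPM), lowest in replicate 3, where DBP, TEF and HLF were each highest. The counting intervals of HLF overlapped, as did those of NFIL3 in replicates 2 and 3 (44.7 to 57.5 and 38.0 to 47.7 CPM).

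**Figure D2:**
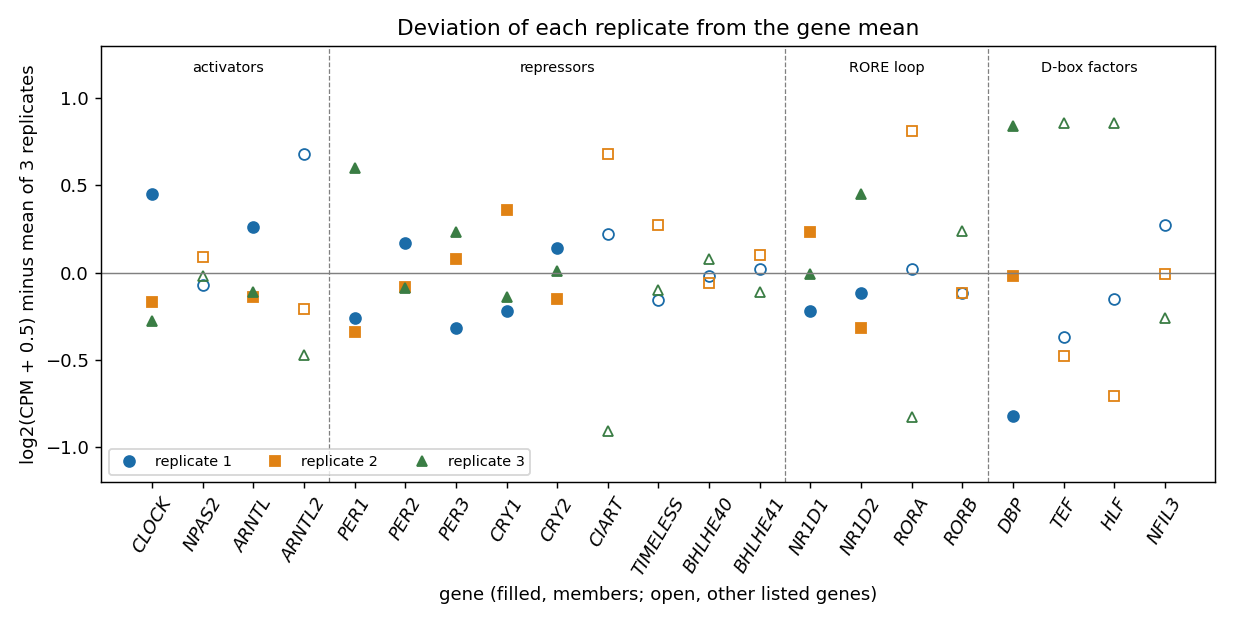
Deviation of each replicate from the gene's mean of 3 replicates, on the log2(CPM + 0.5) scale, for genes of the 4 core lists with a read (filled symbols, the 10 clock genes described here; open symbols, other listed genes). Replicate 3 deviates by 0.84 in DBP, 0.86 in TEF and HLF and 0.45 in NR1D2. It deviates by -0.28 in CLOCK, -0.26 in NFIL3 and -0.83 in RORA. Genes of the same role differ, with 0.6 in PER1, 0.23 in PER3, -0.09 in PER2, -0.91 in CIART and -0.01 in NR1D1.

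The replicate with the highest level differed between members of the loop. CLOCK, ARNTL, PER2 and CRY2 were highest in replicate 1, CRY1 and NR1D1 in replicate 2, and PER1, PER3, NR1D2 and DBP in replicate 3, which is 4, 2 and 4 of 10 genes. Of all genes tested for variation, 39.3% were highest in replicate 1, 24.4% in replicate 2 and 36.3% in replicate 3, so these counts, which include 4 genes with too few reads for that test, lie near the background. This view of the libraries was chosen after the values were seen. For PER1, PER2, PER3, ARNTL, CRY1, CRY2 and NR1D1 the counting intervals of the 3 libraries overlapped, so these intervals do not establish their order. Overlap does not show that an order lies within counting error either.

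Whether any clock gene varied between the replicates more than other genes of its level was tested across the whole table with edgeR's dispersion trend. Of the 10 clock genes, 6 had 10 or more reads in every library and entered the test, and none passed at an adjusted p under 0.05, nor at an unadjusted p under 0.05. Over all 10434 genes tested, 2 passed, which is 0.0192%, and 547 had an unadjusted p under 0.05. CLOCK had the lowest p of the 6, at 0.282 (adjusted p = 1.0, edgeR dispersion trend), and NR1D2 followed at 0.369. With so few genes called anywhere in the table, the count for the clock genes stands near the background. The trend was fitted on the same 3 libraries, and the test can miss differences of the size seen here. NR1D2, for example, differed by 1.73 times between its highest and lowest replicate. The lack of a call therefore does not show that these genes were steady.

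In sizes, CLOCK had a coefficient of variation (CV, the SD as a percentage of the mean) of 29.3%, beside 26.1% that the trend and counting error give together at its level. NR1D2 had 29.8% beside 29.7%. The other 4 lay below that value, CRY1 at 23.6% beside 32.5%, PER3 at 20.2% beside 38.5%, NR1D1 at 17.7% beside 41.0% and ARNTL at 16.6% beside 32.9%. The share of all genes tested that lay below their own value was not counted. The 4 are therefore not shown to be steadier than other genes. The median CV of these 6 genes was 21.9%, and that of all genes tested was 22.4%. Of the 5 other core genes that entered the test, TEF had the largest CV, 60.4% beside 38.8%, and BHLHE40 the smallest, 5.15% beside 23.5%. TEF did not pass the test of variation (unadjusted p = 0.0887, adjusted p = 1.0, edgeR dispersion trend). PER1, PER2, CRY2 and DBP had too few reads for the test. With a minimum of 1 read in every library, DBP had a p of 0.237 and PER1 of 0.339 (adjusted p = 1.0 for both, edgeR dispersion trend).

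**Figure D3:**
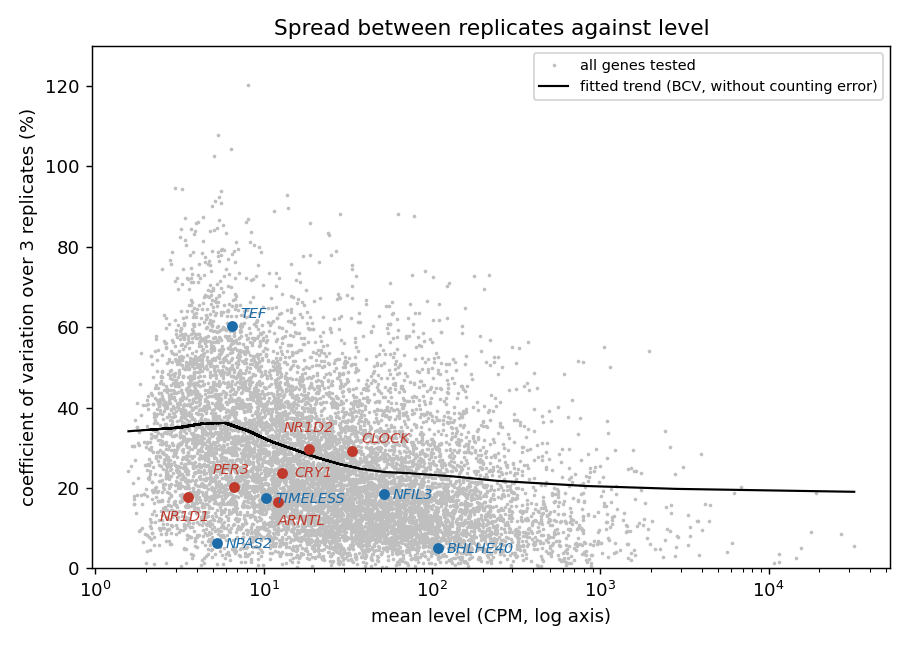
CV over 3 replicates in percent against mean level in CPM on a log axis, for all 10434 genes tested (grey). The 6 clock genes tested are in red and 5 other core genes in blue. The black line is edgeR's fitted dispersion trend as a CV, without the counting error that the expected values in the text include. The 6 clock genes lie between 16.6 and 29.8%, and TEF stands highest of the named genes at 60.4%.

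Pairs of genes that share a role, or act against each other at the same element, were compared within each library as the log2 ratio of CPM + 0.5. Transcript lengths were not used here, so a ratio is one of reads and does not rank the transcripts, but length cancels when a ratio is compared between libraries. All 20 planned pairs had the same direction in the 3 libraries. The exact two-sided sign-flip permutation test over 3 libraries cannot give a p below 0.25, which is what each pair gave.

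Among paralogs, reads of CRY1 exceeded those of CRY2 by 42.2 times over the 3 libraries together (253 against 6 reads, exact 95% interval 19.1 to 116). Reads of PER3 exceeded those of both other PER genes, with a log2 ratio of PER2 over PER3 of -1.82 ± 0.43 and of PER1 over PER3 of -3.01 ± 0.40. The latter rests on 9 reads of PER1 and was -3.88 at a pseudocount of 0.1. Reads of NR1D1 were lower than those of NR1D2 with a log2 ratio of -2.20 ± 0.51, and reads of ARNTL exceeded those of ARNTL2 by 3.30 ± 0.39. CLOCK exceeded NPAS2 in reads by 2.52 ± 0.45 and its partner ARNTL by 1.40 ± 0.18. Reads of BHLHE40 were 316 times those of BHLHE41 (exact 95% interval 153 to 788), and CSNK1D exceeded CSNK1E in reads by a log2 ratio of 3.81 ± 0.22. Reads of DBP were lower than those of TEF with a log2 ratio of -1.71 ± 0.46.

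The range of a ratio over the 3 libraries differed between pairs. ARNTL over PER2 had log2 ratios of 2.72, 2.57 and 2.61, a range of 0.14 and the narrowest of the 20, but it rests on 32 reads of PER2, so that range is narrower than the counting error. CLOCK over ARNTL ranged over 0.37, from 1.59 in replicate 1 to 1.23 in replicate 3. The widest ranges were in pairs with RORA or DBP. NR1D2 over RORA, a repressor and an activator at the same element, ran from 2.16 in replicate 2 to 4.57 in replicate 3, a range of 2.41 that rests on 30 reads of RORA. DBP over NFIL3, which oppose each other at D-boxes, ran from -5.83 in replicate 1 to -3.64 in replicate 3, a range of 2.19, and ARNTL over DBP, one of its targets, ran from 3.78 to 1.75, a range of 2.03. Both rest on 33 reads of DBP, 21 of them in replicate 3. ARNTL over NR1D2, both with 54 or more reads in each library, was -0.18, -0.38 and -1.12, lowest in replicate 3, with a range of 0.94. ARNTL over NR1D1 was 2.11, 1.27 and 1.53, and so was not lowest in replicate 3.

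**Figure D4:**
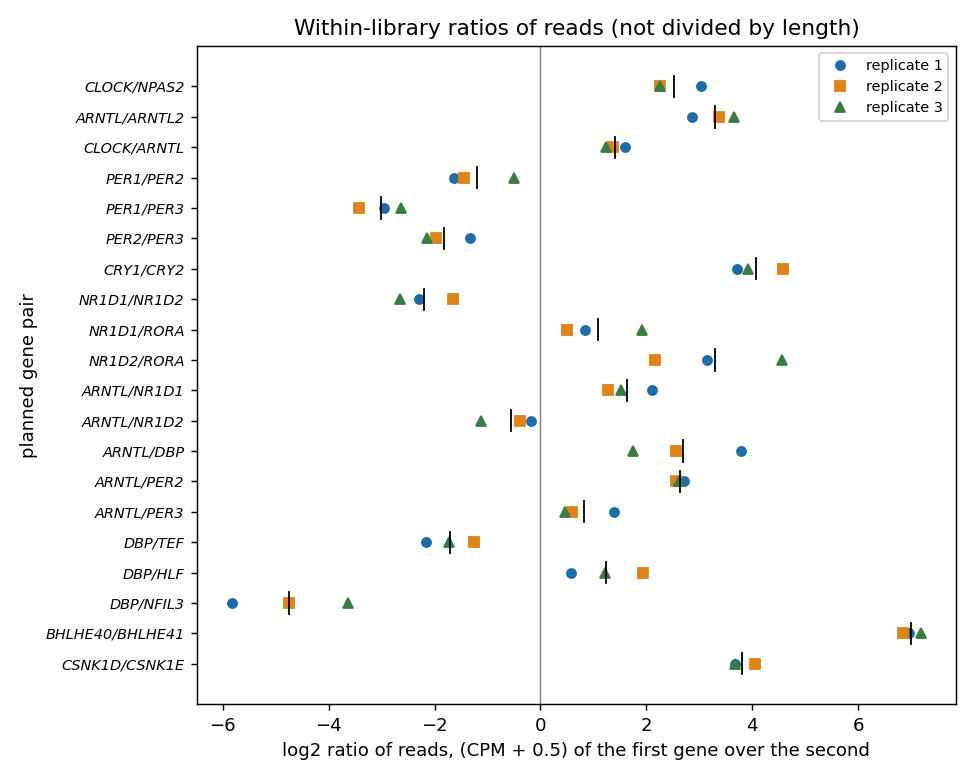
Log2 ratio of reads, (CPM + 0.5) of the first gene over the second, in each replicate for the 20 planned pairs, with the mean as a black bar and no correction for length. NR1D2/RORA, DBP/NFIL3 and ARNTL/DBP spread over more than 2 log2 units, while ARNTL/PER2 spreads over 0.14.

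Most listed genes of the wider machinery around the loop were read. Of the listed kinases and phosphatases, 13 of 14 (92.9%) reached 1 CPM in every library. The background for this and each later list is 61.2% of all genes with a read. Lists were chosen with earlier results of these data known, so a share above that background is not shown to be a trait of the clock. CSNK1D and CSNK1E encode casein kinases that phosphorylate PER. CSNK1D stood at 37.9, 58.2 and 58.4 CPM (mean 51.5 ± 11.8 CPM), and CSNK1E at 2.49, 3.02 and 4.08 CPM (mean 3.20 ± 0.808 CPM). PPP1CB, a catalytic subunit of protein phosphatase 1, had the most reads of this list (317 ± 142 CPM), followed by CSNK2A1 (239 ± 16.7 CPM) and CSNK1A1 (139 ± 7.22 CPM), while PRKAA2, a subunit of the AMP-activated kinase, had 2, 5 and 1 reads.

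Of the turnover genes, 12 of 13 reached 1 CPM in every library, led in mean CPM by the ubiquitin ligase HUWE1 (515 ± 29.7 CPM), the protease USP7 (132 ± 1.64 CPM) and SKP1 (124 ± 54.2 CPM), a ligase subunit. USP2, a protease gene that follows the clock in many tissues, had 1, 3 and 0 reads. All 15 chromatin and RNA cofactors in the table reached 1 CPM, led by DDX5 (948 ± 282 CPM), NONO (459 ± 8.34 CPM), a partner of PER proteins, and THRAP3 (240.3 ± 37.0 CPM). SIRT1, a deacetylase named here after its values were seen, had the lowest p of variation among all 71 listed genes tested, at 0.00147, and did not pass (adjusted p = 0.269, edgeR dispersion trend). It stood at 106, 44.1 and 35.7 CPM, and its mean of 62.1 CPM was 40.4 CPM without replicate 1.

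Signals that reset the clock act largely through PER1 and PER2. A list of genes linked to these signals, not all of which carry them, had 14 genes in the table. Of these, 12 reached 1 CPM in every library, led in mean CPM by the glucocorticoid receptor gene NR3C1 (282 ± 83.1 CPM), CRTC3 (106 ± 6.13 CPM), a coactivator of CREB, and MKL2 (35.2 ± 3.51 CPM), a coactivator of the serum response factor. SIK1, itself induced by cAMP, had 1, 2 and 14 reads, 14 of the 17 in replicate 3, and KLF15 had 3, 4 and 2. Of the 11 genes of this list tested for variation, 8 were highest in replicate 3, beside 36.3% of all genes tested, a count made after the values were seen. None of the 11 passed the test of variation with edgeR's trend, at an adjusted p under 0.05 or an unadjusted p under 0.05. Of the genes listed as outputs, 10 of 11 reached 1 CPM, among them CDKN1A (113 ± 25.2 CPM) and WEE1 (44.8 ± 11.0 CPM), a kinase of mitotic entry with E-boxes in its promoter. ELOVL3 was at 0 reads in every library. Over all 9 lists, 74 of 89 genes in the table (83.1%) reached 1 CPM in every library, beside 61.2% of all genes with a read. Whether that share is particular to the clock was not tested. With edgeR's trend, 0 of 71 genes tested passed the test of variation, and 4 had an unadjusted p under 0.05. Of all 10434 genes tested, 2 passed and 547 had an unadjusted p under 0.05, so the counts for the lists lie near the background.

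**Figure D5:**
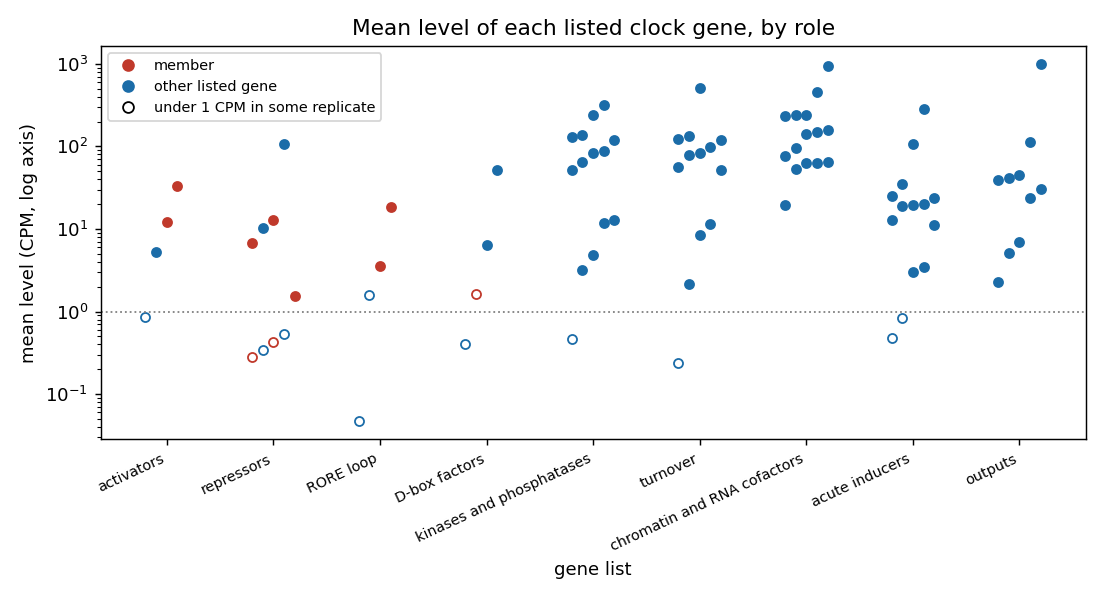
Mean read level of each listed gene in CPM on a log axis, by role, with the 10 clock genes described here in red, other genes in blue, open symbols for genes under 1 CPM in some replicate and genes at 0 reads left out. In the 4 core lists 12 of 22 genes reached 1 CPM in every library, and in the chromatin and RNA cofactor list 15 of 15 did. Of all genes with a read, 61.2% did.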

How the data were processed

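RNA of BFF116 cells was amplified with a single-primer isothermal method and sequenced as single reads of 100 bases, per the labels' protocols. Per the submitters' processing notes, the tools were HTSeq 0.6.1, TopHat2 2.0.10 and bcl2fastq 2.18.0.12. Not given in the sources used here are the strand setting, the counting mode, the annotation and the build. The authors deposited whole-number read counts per gene for 3 replicates, not normalized, and its 5 summary rows entered neither library sizes nor tests (reads in no gene 58.9 to 62.0%, with several alignments 7.52 to 7.99%, over several genes 0.235 to 0.253%).

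CPM was computed with edgeR 4.0.16 (TMM factors 0.978, 1.02 and 0.998) in R 4.3.3. Variation between replicates was tested on 10434 genes whose count was at least 10 in each library, as a negative binomial Pearson statistic on edgeR's dispersion trend against chi-square with 2 degrees of freedom, Benjamini-Hochberg adjusted over all genes tested, and the step was tested on simulated data. Poisson and binomial intervals (95%, exact) and the limit of 3 counts cover counting error only, since reads were not marked by molecule. The series has 1 group, so no groups were compared. Ratios and the choice of the highest genes of a list were planned per length and were made on reads. Genes named are the 10 clock genes, the other genes of the 4 core lists and, of each other list, the 3 with the highest mean CPM, those under 1 CPM and those called variable. CSNK1D and CSNK1E are a planned pair. TSC22D3, EP300 and WDR5 were not analysed here. Some listed genes that this rule names are not reported here. Members and lists were chosen with earlier results of these data known. Gene neighbours come from RefSeq's ARS-UCD2.0 table, in which all 10 symbols matched. Alternatives were DESeq2 1.42.0 size factors, no scaling factor, other count minimums, 1 common dispersion, other pseudocounts and leaving out each replicate.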

Additional observations from a re-analysis of the deposited data

How the results depend on the processing

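The mean level of each of the 10 clock genes moved by less than its SD with DESeq2 size factors and with no scaling factor. Without replicate 3 the mean of PER1 was 0.220 and that of DBP 1.00 CPM, against 0.428 and 1.65 CPM with it. The number at 1 CPM or more in every library was 7 with both other scalings (added after seeing the data) and 7 to 8 without 1 replicate. All 20 planned pairs kept their direction at pseudocounts of 0.1 and 1, and since each had 1 direction in all 3 libraries, leaving out a replicate could not change it. At 0.1, 7 mean ratios moved by more than their SD and at 1, 5 did, and each of these pairs holds PER1, PER2, CRY2, ARNTL2, HLF or BHLHE41. The ratio of CRY1 over CRY2, 4.08 in the report's setting, was 5.09 at 0.1 and 3.42 at 1. The number of genes in the whole table more variable than the trend was 2, and 5 with DESeq2 size factors, 2 with 1 common dispersion, 2 with a minimum of 1 count, and 0 to 6 without 1 replicate (6 without replicate 1, and 0 without replicate 2 or replicate 3). No clock gene passed in any of these. Ratios without division by length were the values reported, since no lengths were used here. No paired analysis was possible because the series has 1 group. Depth limits PER1 and CRY2 most, with 9 and 6 reads in all and overlapping counting intervals.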
